A study of Homo sapiens with 4 samples.

Results

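Extracellular matrix proteins and integrins were followed in HK-2 cells, human renal proximal tubule epithelium kept as an immortalised line. The list held 56 genes of the 34080 genes with a matched transcript, and its genes were chosen by name and function, with earlier results of these data known. It comprised 18 collagen chains, of which COL4A1, COL4A2 and COL18A1 were placed with the basement membrane components, structural and adhesive glycoproteins, thrombospondins, fibrillin and latent TGF-beta binding proteins (LTBP), 4 crosslinking enzymes of the lysyl oxidase family and 12 integrin chains. Polyadenylated RNA was sequenced in 4 libraries of engineered HK-2 cells. All carried a Tet-On construct for HA-PRCC-TFE3, the HA-tagged product of a gene fusion found in TFE3-rearranged renal cell carcinoma. Doxy(+) cells had 0.2 microg/ml doxycycline for 24 h and Doxy(-) cells had none, with 2 libraries in each group, numbered 1 and 2. Without a culture of unmodified HK-2 cells among them, effects of the drug and of the fusion cannot be told apart. Whether 1 line or clone was used, and whether the 2 libraries of a group came from separate cultures, is not given in the labels, and the p-values then measure only the spread between these libraries, which may be technical.

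The extracellular matrix is the protein network that cells secrete around themselves. Collagens form fibrils, sheets and anchoring structures in it, glycoproteins such as fibronectin and the thrombospondins link cells to it, and lysyl oxidases crosslink its fibres. Integrins are receptors made of 1 alpha and 1 beta chain that bind matrix proteins outside the cell and the actin cytoskeleton inside it. Renal tubule cells rest on a basement membrane rich in collagen IV, laminin, nidogen and perlecan, and the alpha v integrins that contain ITGB6 or ITGB8 are known for activating latent TGF-beta.

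The libraries held between 14042545 and 16618401 estimated counts, and library 1 differed from library 2 by more than counting noise in both groups (chi-square per degree of freedom of 4.18 in Doxy(-) and 2.98 in Doxy(+)). TFE3, on whose transcripts reads of the fusion can be placed, had a log2 fold change of 2.34 ± 0.072 (SE) in Doxy(+) (adjusted p = 4.78e-05, edgeR). Among markers of renal tubule epithelium, PAX8 stood at 565 to 605 CPM (counts scaled to a common library size) and KRT8, KRT18, KRT19 and GGT1 were present, whereas PAX2, ANPEP, AQP1, LRP2 and SLC22A6 were at or near 0. Of the 9 tubule markers tested, 4 were lower in Doxy(+) (CDH6, KRT8, KRT18 and KRT19) and GGT1 was higher, and their part in the results on the matrix genes was not tested. Summed fibroblast markers were 165 and 178 CPM in Doxy(-) and 190.1 and 189 CPM in Doxy(+), nearly all from lumican (LUM), with PDGFRA, PDGFRB, FAP, POSTN and DPT at or near 0 and 0 of 3 tested markers past the adjusted p. The 5 endothelial markers summed to at most 1.04 CPM and the 5 blood cell markers to at most 4.54 CPM in any library. In bulk RNA, fewer cells of a type and less RNA per cell cannot be told apart.

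First, the whole list was compared between the groups. Of the 56 genes, 49 passed the low-count filter. In Doxy(+), 25 of the 49 were lower and 3 were higher at an adjusted p under 0.05 (edgeR quasi-likelihood test, Benjamini-Hochberg over 13569 genes), and 21 did not pass. Over all genes tested, 9.52% were lower and 9.76% were higher at this limit. Since most of the list was well expressed, the count was repeated for those that averaged 10 CPM or more. Here 24 of 43 members were lower and 3 were higher, beside 12.7% lower and 11.8% higher of the 9609 genes at that level. At both limits that the study used, the adjusted p and a log2 fold change over 1 in size, 5 members were lower and 0 were higher, and 0.479% of all genes tested were lower and 1.5% were higher. At an unadjusted p under 0.05, 30 members were lower and 5 were higher, beside 16.6% of all genes tested lower and 16.8% higher. The median log2 fold change was -0.21 over the 49 members and 0.00062 over all genes tested, and 39 of the 49 had a negative sign, as had 6770 of the 13569 genes tested. As a share of all counts on genes, the 56 genes took 8.12% in both Doxy(-) libraries and 6.83% and 6.77% in the Doxy(+) libraries.

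**Figure D1:**
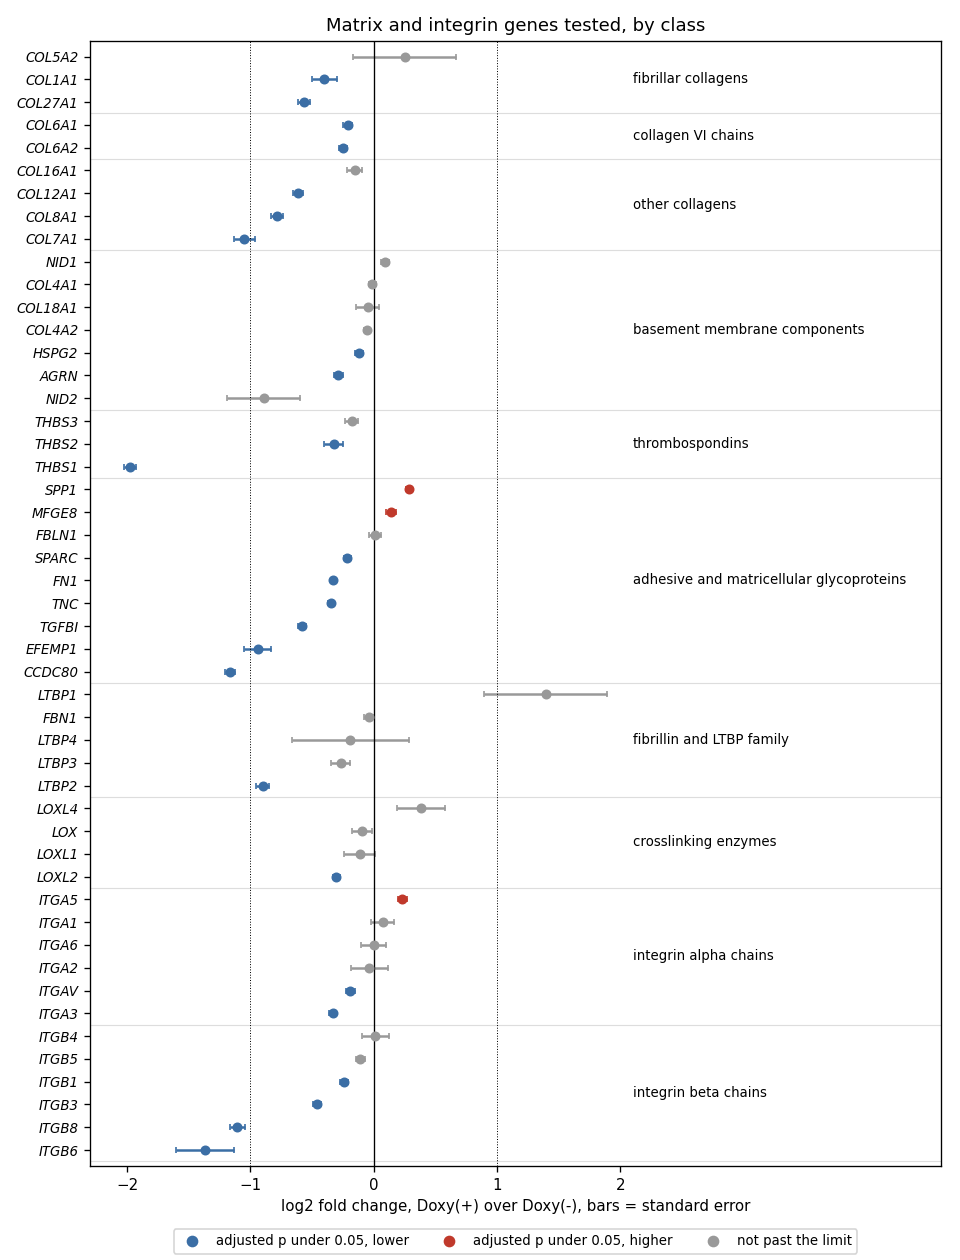
Log2 fold change of Doxy(+) over Doxy(-) on the x axis for each of the 49 members tested, ordered by class on the y axis. Points are edgeR estimates from 2 libraries per group, bars are standard errors, dotted lines mark a log2 fold change of 1 in either direction, and colour marks the side of the adjusted p limit of 0.05. THBS1 lies farthest to the left at -1.98, while COL4A1 and COL4A2 lie at -0.012 and -0.054.

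The 5 genes past both limits were THBS1, ITGB6, CCDC80, ITGB8 and COL7A1. To show the sequence around the start of the genes that moved most, their promoter windows are given below with that of ITGA5, the integrin chain that was higher. The sequences are from RefSeq on GRCh38.p14, mostly upstream of the start with the first transcribed bases, written 5′ to 3′ on the strand of the gene. Capitals mark matches, on either strand, to the letters of the AP-1 motif TGANTCA, the TEAD motif GGAATG, the CCAAT box CCAAT, the TATA box TATAAA, and the E-box CACGTG with its longer M-box core TCACGTG, which MiT/TFE proteins such as TFE3 are known to bind and which contains the E-box. The windows are chr15:39580829-39581128 (plus strand) for THBS1, chr3:112641094-112641393 (minus strand) for CCDC80, chr3:48595280-48595579 (minus strand) for COL7A1, chr2:160200223-160200522 (minus strand) for ITGB6, chr7:20330650-20330949 (plus strand) for ITGB8 and chr12:54419217-54419516 (minus strand) for ITGA5.
THBS1: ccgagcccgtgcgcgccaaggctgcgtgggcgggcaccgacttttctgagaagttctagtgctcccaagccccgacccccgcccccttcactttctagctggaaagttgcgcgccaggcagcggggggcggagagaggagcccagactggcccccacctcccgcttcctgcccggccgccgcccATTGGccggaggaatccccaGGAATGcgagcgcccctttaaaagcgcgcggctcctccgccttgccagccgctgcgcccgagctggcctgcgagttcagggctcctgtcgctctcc
CCDC80: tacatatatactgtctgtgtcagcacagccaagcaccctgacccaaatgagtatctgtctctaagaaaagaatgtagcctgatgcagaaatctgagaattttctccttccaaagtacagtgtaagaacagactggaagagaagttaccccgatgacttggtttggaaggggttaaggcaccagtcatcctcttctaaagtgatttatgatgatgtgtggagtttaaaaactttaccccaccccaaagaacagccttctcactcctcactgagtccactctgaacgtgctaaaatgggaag
COL7A1: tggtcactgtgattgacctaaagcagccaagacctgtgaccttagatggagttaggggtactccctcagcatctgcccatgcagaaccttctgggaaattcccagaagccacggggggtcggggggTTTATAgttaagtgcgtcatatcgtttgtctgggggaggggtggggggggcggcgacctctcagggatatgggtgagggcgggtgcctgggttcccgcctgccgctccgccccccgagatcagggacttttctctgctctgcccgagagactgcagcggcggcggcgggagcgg
ITGB6: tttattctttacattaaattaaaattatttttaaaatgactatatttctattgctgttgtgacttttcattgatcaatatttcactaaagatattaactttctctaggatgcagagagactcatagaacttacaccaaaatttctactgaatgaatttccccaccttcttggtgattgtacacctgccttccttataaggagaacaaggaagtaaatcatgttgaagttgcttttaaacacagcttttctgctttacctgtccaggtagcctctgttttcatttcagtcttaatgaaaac
ITGB8: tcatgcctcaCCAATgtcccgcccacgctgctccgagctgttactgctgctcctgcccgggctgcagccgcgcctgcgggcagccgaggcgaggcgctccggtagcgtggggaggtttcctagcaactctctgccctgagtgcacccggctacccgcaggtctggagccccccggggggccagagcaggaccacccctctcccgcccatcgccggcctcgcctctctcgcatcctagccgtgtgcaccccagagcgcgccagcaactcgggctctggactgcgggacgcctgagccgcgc
ITGA5: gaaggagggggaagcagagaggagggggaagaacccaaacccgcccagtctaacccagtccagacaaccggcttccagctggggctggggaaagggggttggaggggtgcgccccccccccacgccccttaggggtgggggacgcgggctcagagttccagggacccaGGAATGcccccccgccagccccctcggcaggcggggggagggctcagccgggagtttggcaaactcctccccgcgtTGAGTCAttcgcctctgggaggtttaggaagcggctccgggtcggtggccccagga

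The E-box and the M-box core matched in none of these windows. Of the 56 members, 44 had a window in the table. Among the 44, 0 held CACGTG, a match found in 7.26% of the 35116 windows of all genes, and 0 held TCACGTG, found in 3.71% of all windows. The TEAD letters were in 9 of 44, among them THBS1, THBS2, COL12A1, SPARC and ITGB1 and also ITGA5 and MFGE8, which moved the other way, and in 14% of all windows. CCAAT was in 12 of 44, THBS1, ITGB8, FN1, COL4A1 and COL4A2 included, and in 34.6% of all windows. TATAAA was in 6 of 44, COL7A1 included, and in 11.5% of all. TGANTCA was in ITGA5 alone of the 44 and in 7.71% of all windows. A match describes these letters in this window and not a bound site, and the leading coding transcript of COL7A1 started 62 bases and that of CCDC80 started 157 bases from the start used for the window. Among other members with a match, larger distances were 198 bases for THBS2, 739 for FBN1, 4069 for LTBP4 and 5207 for COL17A1. The windows of COL4A1 and COL4A2 overlap in position on opposite strands, so their CCAAT matches may be 1 site.

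Next, the members were examined by role, starting with the matricellular proteins, which modulate adhesion rather than carry load. THBS1, thrombospondin 1, an adhesive glycoprotein known to activate latent TGF-beta, fell from 139 and 136 CPM in Doxy(-) to 35.3 and 34.6 CPM in Doxy(+). The log2 fold change of -1.98 ± 0.051 (SE, adjusted p = 3.35e-05) was the largest fall in the list, and the Doxy(-) level was 3.93-fold that of Doxy(+). In TPM, a level per transcript length, the Doxy(+) libraries were farther apart, at 13.4 and 6.86, and a short retained-intron transcript, THBS1-208, held 29.1% of the TPM of the gene in one and 0% in the other. Exons of THBS1 overlap those of FSIP1 on the other strand, and whether the counting used strand is not stated. The gene lies at chr15:39581079-39599466 on hg38.

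THBS2, its close relative, fell from 83.0 and 96.5 CPM in Doxy(-) to 72.2 and 71.4 CPM in Doxy(+), a log2 fold change of -0.32 ± 0.079 (adjusted p = 0.0364). The THBS2 call was lost in 7 of 15 other settings. THBS3 was at 107 and 102 CPM without doxycycline against 94.5 and 89.8 CPM with it, and its log2 fold change of -0.18 ± 0.051 did not pass (adjusted p = 0.0611). In TPM, THBS3 was the most abundant of the thrombospondins in both groups, at a mean of 63.1 in Doxy(-), followed by THBS1 at 36.5 ± 0.86 and THBS2 at 33.1 ± 5.51 (SD, n = 2), which did not differ beyond the spread of THBS2. In Doxy(+) the order was THBS3, THBS2 and THBS1, at 56, 25.1 and 10.1 TPM.

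Of the 9 adhesive and matricellular glycoproteins tested, 6 were lower (66.7%), 2 were higher (22.2%) and FBLN1 did not pass. Over all genes tested, 9.52% were lower and 9.76% were higher. FN1, fibronectin, the glycoprotein that carries the main binding site for integrin alpha 5 beta 1, was by far the most abundant member. It fell from 68165 and 68521 CPM in Doxy(-) to 54718 and 54273 CPM in Doxy(+), with a log2 fold change of -0.33 ± 0.019 (adjusted p = 0.000310). The groups did not overlap, and FN1 alone took 6.71% of the counts on genes in both Doxy(-) libraries and 5.57% and 5.51% in Doxy(+). Without FN1, 24 of 48 members were lower and their median log2 fold change was -0.20.

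The splicing of FN1 was also examined, since inclusion of its EDA and EDB exons distinguishes cellular from plasma fibronectin. EDB, at chr2:215392931-215393203, was in transcripts that held 15.1% and 15.0% of the TPM of the 10 long coding transcripts in Doxy(-) and 15.8% in both Doxy(+) libraries. EDA, at chr2:215380811-215381080, was in 48.6% and 46.1% in Doxy(-) and in 45.7% and 46.4% in Doxy(+). The EDA shares overlapped between the groups, and the EDB shares differed by less than 1 percentage point. These shares come from TPM, for which the authors' quantifier divided reads between similar transcripts.

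CCDC80, a secreted matrix-binding protein, fell from 364 and 385 CPM in Doxy(-) to 168 and 167 CPM in Doxy(+), a log2 fold change of -1.16 ± 0.040 (adjusted p = 7.18e-05). It was the eighth member by TPM in Doxy(-) and the sixteenth in Doxy(+). Over 15 other settings its log2 fold change ran from -1.21 to -0.96, so CCDC80 was not past both limits in every setting. EFEMP1, fibulin 3, of the family that assembles with elastic fibres, fell from 22.7 and 20.3 CPM in Doxy(-) to 11.7 and 10.7 CPM in Doxy(+), a log2 fold change of -0.94 ± 0.11 (adjusted p = 0.00300). TGFBI, a TGF-beta-induced protein that binds collagens and integrins, fell from 553 and 539 CPM in Doxy(-) to 360.4 and 371 CPM in Doxy(+), a log2 fold change of -0.58 ± 0.032 (adjusted p = 0.000272). In each of these genes both Doxy(+) libraries were below both Doxy(-) libraries, which their choice by the adjusted p makes likely.

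TNC, tenascin C, a large matricellular protein of remodelling tissue, fell from 678 and 679 CPM in Doxy(-) to 533 and 534 CPM in Doxy(+), a log2 fold change of -0.35 ± 0.027 (adjusted p = 0.000749). SPARC, a collagen-binding matricellular protein, had a log2 fold change of -0.21 ± 0.028 (adjusted p = 0.00466) and was the third member by TPM in both groups, at 746 and 652. FBLN1, fibulin 1, stood at 64.8 to 66.1 CPM across the libraries, and the 95% interval of its log2 fold change ran from -0.11 to 0.13. SPP1, osteopontin, a secreted ligand of alpha v integrins and CD44, went the other way. It rose from 1438 and 1471 CPM in Doxy(-) to 1778 and 1773 CPM in Doxy(+), a log2 fold change of 0.29 ± 0.026 (adjusted p = 0.00123). MFGE8, another ligand of alpha v integrins, rose from 163 and 161 CPM in Doxy(-) to 176 and 182 CPM in Doxy(+), a log2 fold change of 0.14 ± 0.038 that just passed (adjusted p = 0.0483) and did not pass in 12 of 15 other settings. The TPM of FN1 was 7.40 and 7.51 times that of SPP1 in Doxy(-) and 5.24 and 4.99 times in Doxy(+).

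**Figure D2:**
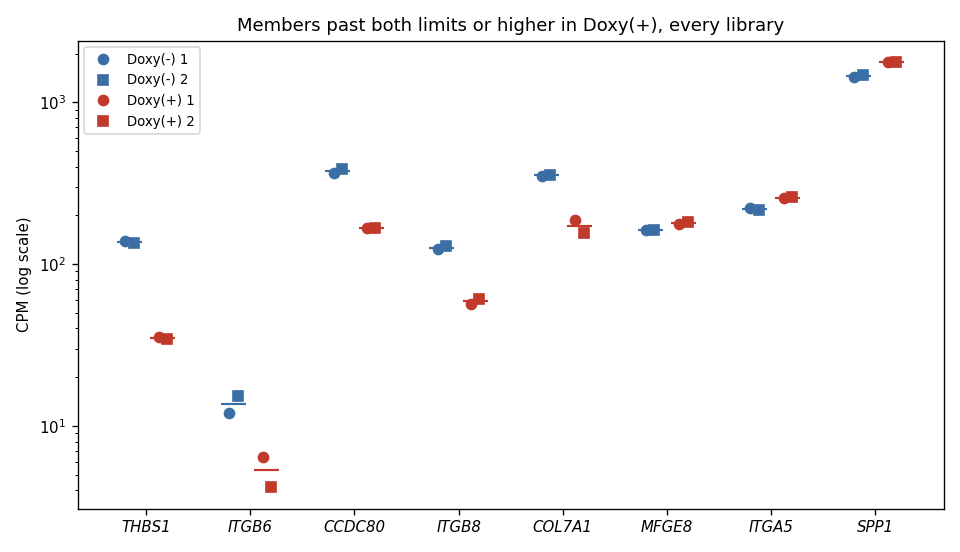
CPM on a log scale (y axis) in every library for the 5 members past both limits and the 3 members that were higher in Doxy(+). Points are single libraries, circles for number 1 and squares for number 2, and short lines are group means. In each of the 8 genes the 2 groups do not overlap. As the genes were chosen by their adjusted p, this gap adds no separate support. THBS1 is at 139 and 136 CPM in Doxy(-) against 35.3 and 34.6 CPM in Doxy(+), and MFGE8 at 163 and 161 against 176 and 182 CPM.

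Collagens were then compared by type. Of the 18 collagen chains, 12 were tested, of which 7 were lower (58.3%, beside 9.52% over all genes tested) and 0 were higher. The other 5 did not pass, the 3 chains of basement membranes included. COL7A1, the chain of collagen VII, which forms the fibrils that anchor an epithelium below its basement membrane, fell from 351 and 357 CPM in Doxy(-) to 188 and 155 CPM in Doxy(+), a log2 fold change of -1.05 ± 0.085 (adjusted p = 0.000822). COL8A1, a short-chain network collagen, fell from 201 and 215 CPM in Doxy(-) to 121 CPM in both Doxy(+) libraries, a log2 fold change of -0.78 ± 0.046 (adjusted p = 0.000311). COL12A1, which decorates the surface of collagen fibrils, fell from 221 and 228 CPM in Doxy(-) to 150.4 and 144 CPM in Doxy(+), a log2 fold change of -0.61 ± 0.041 (adjusted p = 0.000447). These 3 were the largest falls among the collagens, and COL7A1 and COL8A1 stayed past the adjusted p in all 15 other settings. The log2 fold change of COL7A1 ran from -1.20 to -0.92 over them, so it was not past both limits in every setting. COL16A1, of the same fibril-associated class as COL12A1, had a log2 fold change of -0.15 ± 0.060 that did not pass (adjusted p = 0.136).

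Fibrillar collagens, the load-bearing type, were mostly low in these cells. COL27A1, the most abundant of them, fell from 91.1 and 88.9 CPM in Doxy(-) to 61.5 and 60.1 CPM in Doxy(+), a log2 fold change of -0.57 ± 0.050 (adjusted p = 0.00111). COL1A1, the alpha 1 chain of collagen I, fell from 22.3 and 20.2 CPM in Doxy(-) to 16.7 and 15.5 CPM in Doxy(+), a log2 fold change of -0.40 ± 0.10 (adjusted p = 0.0414), a call lost in 8 of 15 other settings. Its partner chain COL1A2 had 4.01, 0, 2 and 0 estimated counts in Doxy(-) 1 and 2 and Doxy(+) 1 and 2. COL3A1 had 0 counts in all 4 libraries, which allows up to 0.233 CPM in the shallowest. Such a limit accounts for counting error alone. COL5A1 had 0 counts in both Doxy(-) libraries against 2 and 1 in Doxy(+), and COL5A2 was tested at 1.50 to 2.98 CPM without passing (adjusted p = 0.722).

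Collagen VI, which forms beaded filaments around cells, was represented by 2 of its chains. COL6A2 fell from 332 and 344 CPM in Doxy(-) to 287 and 283 CPM in Doxy(+), a log2 fold change of -0.25 ± 0.034 (adjusted p = 0.00552). COL6A1 had a log2 fold change of -0.21 ± 0.033 (adjusted p = 0.00841), close to that of its partner, and the TPM ratio of COL6A1 to COL6A2 was 0.608 and 0.570 without doxycycline against 0.563 and 0.604 with it. The ratio overlapped between the groups. COL6A3, the chain that completes the usual heterotrimer, had 6.64 and 3.14 counts without doxycycline against 2.12 and 6.17 with it. COL13A1 had 0 counts in every library. COL17A1, a transmembrane collagen of hemidesmosomes, had 1.72 and 0.523 counts without doxycycline against 28.1 and 4.05 with it, and 21.5 of the 28.1 were on 1 transcript, COL17A1-201, that had 0 counts in the other 3 libraries.

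Basement membrane components were described as a class of their own. Of 7 tested, 2 were lower (28.6%, beside 9.52% over all genes tested) and 0 were higher. The median log2 fold change was -0.054, beside -0.70 over the 4 tested chains of the group that holds COL7A1. Small medians were not particular to this class. They were -0.018 over the integrin alpha chains, -0.10 over the crosslinking enzymes and -0.19 over the fibrillin and LTBP family. COL4A1, a chain of collagen IV, the network-forming collagen of basement membranes, was at 741 and 726 CPM without doxycycline against 732 and 723 CPM with it, with a 95% interval of the log2 fold change from -0.080 to 0.057. COL4A2, its partner chain, was at 862 and 858 CPM without doxycycline against 834 and 822 CPM with it, with an interval from -0.12 to 0.010. The TPM ratio of COL4A1 to COL4A2 lay between 0.803 and 0.829 in all 4 libraries. Neither interval reached the log2 fold change of COL8A1 or COL7A1.

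AGRN, agrin, a heparan sulfate proteoglycan, was the most abundant basement membrane component. It fell from 1293 and 1229.5 CPM in Doxy(-) to 1049.5 and 1020.4 CPM in Doxy(+), a log2 fold change of -0.29 ± 0.035 (adjusted p = 0.00348). HSPG2, perlecan, had a log2 fold change of -0.12 ± 0.030 (adjusted p = 0.0413), and its call was lost in 6 of 15 other settings. NID1, nidogen 1, which links laminin to collagen IV, was at 264 and 265 CPM in Doxy(-) and 283 and 279.7 CPM in Doxy(+) without passing (0.090 ± 0.032, adjusted p = 0.105). Its relative NID2 was at 7.29 and 13.2 CPM in Doxy(-) and 5.05 and 6.03 CPM in Doxy(+), a log2 fold change of -0.89 ± 0.30 that did not pass (adjusted p = 0.0917), although it did without Doxy(-) 1 (-1.25, adjusted p = 0.00415). COL18A1, the source of endostatin, had a log2 fold change of -0.049 ± 0.093 (adjusted p = 0.760).

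**Figure D3:**
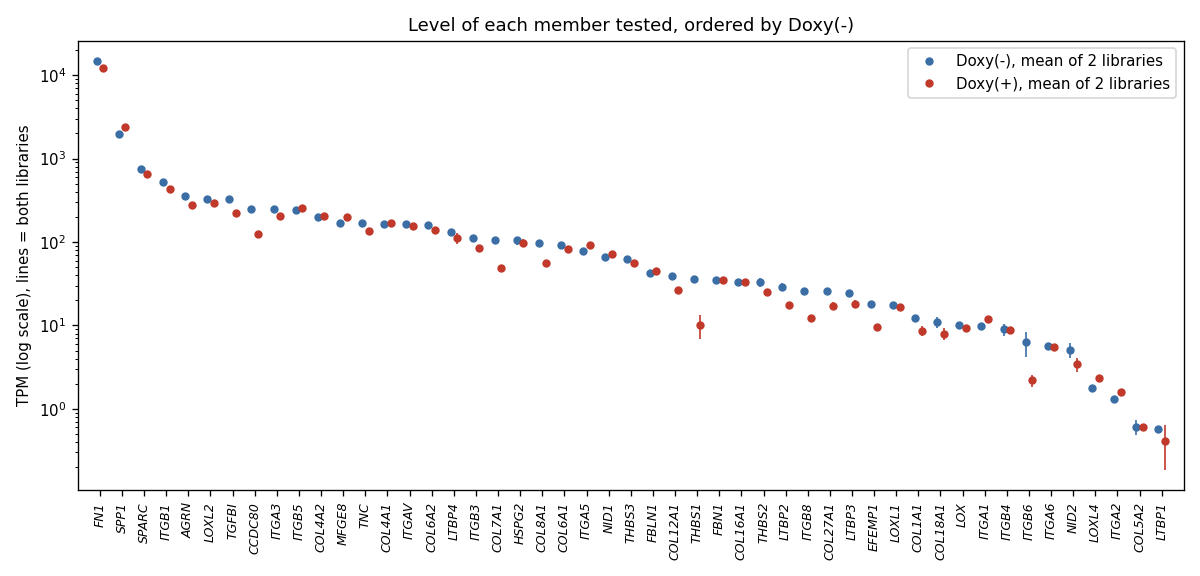
Level in TPM on a log scale (y axis) of each of the 49 members tested (x axis), ordered by the mean of the Doxy(-) libraries. Points are means of 2 libraries and vertical lines join the values of both libraries. FN1 stands highest at 14775 TPM in Doxy(-) and 12172 TPM in Doxy(+), and LTBP1 lowest at 0.575 and 0.409 TPM.

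Some LTBPs, though not LTBP2, hold latent TGF-beta in the matrix, and fibrillin 1 forms the microfibrils to which LTBPs attach. LTBP2 fell from 133 and 134 CPM in Doxy(-) to 68.9 and 74.1 CPM in Doxy(+), a log2 fold change of -0.90 ± 0.052 (adjusted p = 0.000307), and was the only one of the 5 genes of this group to pass. FBN1, fibrillin 1, was at 184 and 176 CPM without doxycycline against 172 and 179 CPM with it, values that overlapped, with a log2 fold change of -0.036 ± 0.041. LTBP3 had a log2 fold change of -0.27 ± 0.078 that did not pass (adjusted p = 0.0645). LTBP1, at 0.272 to 0.932 CPM, had 1.39 ± 0.50 (adjusted p = 0.108) from 4.52 and 3.85 counts without doxycycline against 11.6 and 10.6 with it.

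LTBP4 was the most abundant of this group by TPM, and its Doxy(+) libraries were far apart. It was at 139.8 and 133 CPM without doxycycline against 54.1 and 184 CPM with it, so that the Doxy(+) libraries lay on either side of the Doxy(-) libraries. Most of the gap was on 1 transcript, LTBP4-203, with 901 and 819.8 counts without doxycycline against 19.4 and 1778 with it. Over all libraries the log2 fold change was -0.19 ± 0.48 (adjusted p = 0.823). Without Doxy(+) 2 it was -1.33 (adjusted p = 0.000772), and without Doxy(+) 1 it was 0.44 (adjusted p = 0.0167), so either library alone would have given a call, in opposite directions. In TPM, LTBP4 was at 136 and 128 in Doxy(-) and at 95.4 and 129 in Doxy(+).

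Among the crosslinking enzymes, LOXL2, which oxidises lysines of collagen and acts on collagen IV of basement membranes, was the most abundant and the only one to pass. It fell from 688 and 699 CPM in Doxy(-) to 563 and 560.3 CPM in Doxy(+), a log2 fold change of -0.30 ± 0.028 (adjusted p = 0.00125). Exons of LOXL2 overlap those of ENTPD4 on the same strand, and their reads may be divided uncertainly. LOX was at 22.9 and 22.0 CPM in Doxy(-) and 21.0 CPM in both Doxy(+) libraries without passing (adjusted p = 0.489). LOXL1 at 11.2 to 13.6 CPM and LOXL4 at 4.08 to 6.11 CPM also did not pass (adjusted p = 0.582 and 0.233). The small proteoglycan BGN, biglycan, had 1.05 and 2.52 counts without doxycycline against 1.50 and 3.16 with it.

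Integrin chains were all above the low-count filter. Of 12, 6 were lower (50%), 1 was higher (8.33%) and 5 did not pass. Over all genes tested, 9.52% were lower and 9.76% were higher, so the share of chains that was higher was near that over all genes. The median log2 fold change of the 12 chains was -0.15. The largest falls were in a pair of beta chains that pair with alpha v only. ITGB8 fell from 123 and 129 CPM in Doxy(-) to 56.5 and 61.1 CPM in Doxy(+), a log2 fold change of -1.10 ± 0.059 (adjusted p = 0.000237). ITGB6 fell from 11.9 and 15.4 CPM in Doxy(-) to 6.45 and 4.17 CPM in Doxy(+), a log2 fold change of -1.37 ± 0.24 (adjusted p = 0.0118). ITGB6 rested on 56.4 to 226 counts per library, with a 95% interval from -1.94 to -0.79, and it lost its call in the 3 settings that applied limma to TPM. It also did not pass the stricter adjusted p of 0.01. Exons of ITGB6 overlap those of another gene on the same strand.

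ITGB3, the partner of alpha v in the vitronectin receptor, fell from 303 and 296 CPM in Doxy(-) to 216 and 219.9 CPM in Doxy(+), a log2 fold change of -0.46 ± 0.034 (adjusted p = 0.000625). ITGB1, the beta chain shared by the collagen, laminin and fibronectin receptors, fell from 1163 and 1221 CPM in Doxy(-) to 1002 and 1015 CPM in Doxy(+), a log2 fold change of -0.24 ± 0.033 (adjusted p = 0.00506). It had the highest TPM of all integrin chains, at a mean of 529 in Doxy(-) and 436 in Doxy(+), and 1 annotated pseudogene could share its reads. ITGB5 did not pass in counts (-0.11 ± 0.038, adjusted p = 0.105), and in TPM its sign turned, at 235 and 252 in Doxy(-) and 248 and 259.9 in Doxy(+). ITGB4, the chain of hemidesmosomes, stood at 20.2 to 23.1 CPM, with an interval of the log2 fold change from -0.25 to 0.28.

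The median log2 fold change was -0.018 over the 6 alpha chains and -0.35 over the 6 beta chains, a difference that was not tested. ITGA3, of the laminin receptor, fell from 692 and 691 CPM in Doxy(-) to 547 and 553 CPM in Doxy(+), a log2 fold change of -0.33 ± 0.027 (adjusted p = 0.000898). ITGAV, the alpha v chain itself, fell from 546 and 567 CPM in Doxy(-) to 499 and 476 CPM in Doxy(+), a log2 fold change of -0.19 ± 0.037 (adjusted p = 0.0184), which was lost in 6 of 15 other settings. ITGA5, of the fibronectin receptor, was the only integrin chain in the list that was higher, at 222 and 215 CPM in Doxy(-) and 255 and 259 CPM in Doxy(+). This rise of 0.23 ± 0.036 on the log2 scale (adjusted p = 0.00751) was lost in 6 of 15 other settings too. Its main ligand FN1 and its partner chain ITGB1 were lower in the same libraries. ITGA1, ITGA2 and ITGA6, at 27.2 to 32.0, 6.78 to 7.28 and 13.9 to 14.8 CPM, had overlapping groups and did not pass.

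In TPM the alpha chains kept the order ITGA3, ITGAV, ITGA5, ITGA1, ITGA6 and ITGA2 in both groups, and the beta chains kept the order ITGB1, ITGB5, ITGB3, ITGB8, ITGB4 and ITGB6. In Doxy(-), ITGB4 and ITGB6 did not differ beyond their spread, at 9.01 ± 2.08 and 6.27 ± 2.96 TPM (SD, n = 2). The TPM ratio of ITGA5 to ITGA3 was 0.324 and 0.312 without doxycycline against 0.453 and 0.441 with it. ITGB8 had 0.111 and 0.103 of the TPM of ITGB5 in Doxy(-) and 0.0476 and 0.0480 in Doxy(+). These ratios set genes side by side and do not measure how chains pair at the cell surface.

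**Figure D4:**
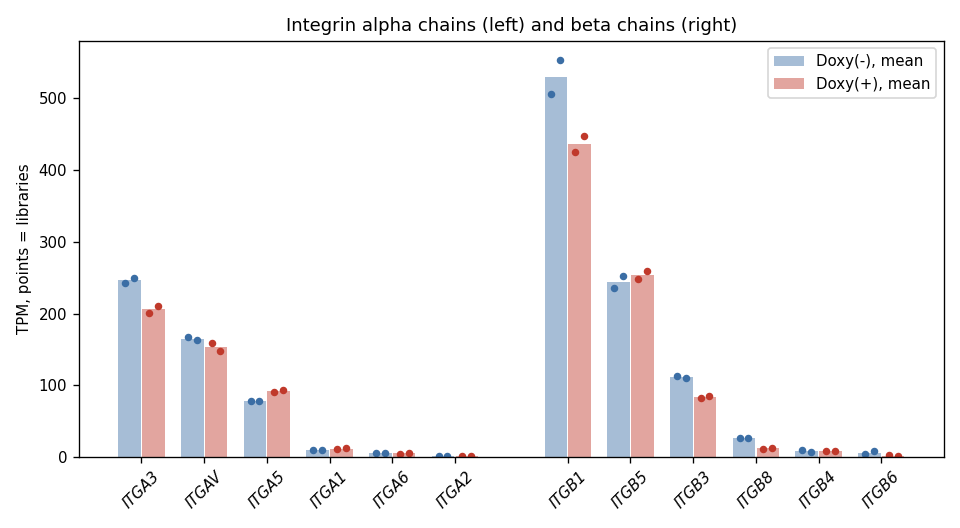
TPM (y axis) of the 6 integrin alpha chains and the 6 beta chains (x axis) in Doxy(-) and Doxy(+). Bars are means of 2 libraries and points are the libraries. ITGB1 stands highest at 529 TPM in Doxy(-) and 436 TPM in Doxy(+), ITGB8 falls from 26.1 to 12.2 TPM, and ITGA5 is above its Doxy(-) level, at 91.9 against 78.3 TPM.

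Transcript shares within genes were compared next. A transcript was named where its share of the TPM of the gene differed by 5 percentage points or more without overlap and at least 2 transcripts each held 10% or more of it. In all, 24 transcripts of 16 members met this rule, 14 of them with 50 counts or more in every library. How often it was met over all genes was not examined. Examples are given for AGRN and LOXL2, chosen after their values were seen. Larger differences occurred, such as COL18A1-202 at 23.1% and 17.5% in Doxy(-) and 35.3% and 49.7% in Doxy(+). AGRN-201, its full-length coding transcript, held 65.5% and 66.2% in Doxy(-) and 71.9% and 72.4% in Doxy(+). LOXL2-201 held 85.3% and 84.8% in Doxy(-) and 78.5% and 77.5% in Doxy(+). No test was made of these shares.

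Finally, other genes of matrix production and adhesion were examined in the same fit. Over all genes tested, 9.52% were lower and 9.76% were higher at an adjusted p under 0.05. In a list of 24 enzymes and chaperones of collagen biosynthesis, 23 were tested, 6 were lower (26.1%) and 2 were higher (8.7%). The share that was higher was near that over all genes. P4HA2, a subunit of the prolyl 4-hydroxylase that stabilises the collagen helix, fell from 331 and 326 CPM in Doxy(-) to 178 and 180.3 CPM in Doxy(+), a log2 fold change of -0.87 ± 0.033 (adjusted p = 8.05e-05). P3H2, a prolyl 3-hydroxylase, was also lower (-0.27 ± 0.039, adjusted p = 0.00581), and PLOD3, a lysyl hydroxylase, was higher (0.29 ± 0.040, adjusted p = 0.00550). Of 32 focal adhesion genes, the cytoplasmic partners of integrins, 13 were lower (40.6%), 0 were higher and 19 did not pass. CAV1, the main protein of caveolae, had a log2 fold change of -0.97 ± 0.054 (adjusted p = 0.000263), the adhesion protein ZYX, zyxin, had -0.57 ± 0.039 (adjusted p = 0.000490), and the actin crosslinker FLNA, filamin A, had -0.41 ± 0.030 (adjusted p = 0.000615). The medians of both lists were negative, at -0.12 and -0.20.

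The lists that follow are small, and their counts stand beside the 9.52% lower and 9.76% higher over all genes tested. Of 14 integrin chains outside the list, 7 were tested, 1 was higher and 0 were lower. That one was ITGAX, the alpha X chain known from leukocytes, at 10.9 and 12.0 CPM in Doxy(-) and 19.3 and 20.9 CPM in Doxy(+) (0.81 ± 0.11, adjusted p = 0.00469), and ITGA4 and ITGA2B did not pass (-0.30, adjusted p = 0.0712, and 0.82, adjusted p = 0.228). Among non-integrin matrix receptors, 3 of 12 tested were lower and 0 were higher, namely the syndecan SDC2 (-0.45 ± 0.034, adjusted p = 0.000661), the hyaluronan and osteopontin receptor CD44 (-0.55 ± 0.042, adjusted p = 0.000726) and the glypican GPC1 (-0.47 ± 0.099, adjusted p = 0.0236). Of 26 collagen chains outside the list, 10 were tested, 2 were higher and 0 were lower. COL14A1, another fibril-associated collagen, rose from 32.8 and 26.5 CPM in Doxy(-) to 55.1 and 49.6 CPM in Doxy(+) (0.82 ± 0.11, adjusted p = 0.00489). COL4A5, a collagen IV chain of the mature glomerular basement membrane, was higher in counts (0.47 ± 0.11, adjusted p = 0.0308), while its mean TPM was 7.38 in Doxy(-) and 6.32 in Doxy(+), and COL11A1 did not pass (-1.10 ± 0.34, adjusted p = 0.0727). The median log2 fold change was 0.17 over the other integrin chains, 0.026 over the non-integrin receptors and 0.44 over the other collagens. Only 3 of the 10 other collagens tested averaged 10 CPM or more, so their median rests mostly on genes with low counts.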

How the data were processed

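Libraries were made from polyadenylated RNA with a stranded TruSeq kit, and the submitters' processing notes name Trim Galore 0.6.6, cutadapt 2.5, STAR 2.7.9a and hg38. The methods of the study further give RSEM and DESeq2, but the deposited files have the columns that kallisto writes, and the version of the quantifier, its annotation and its use of strand are not given in the sources used here. The authors deposited, for 180253 transcript identifiers per library, an estimated count that is not normalized, a TPM that sums over all identifiers, and an effective length, the same in all libraries.

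Identifiers were matched to GENCODE 44 (83.6%), and estimated counts and TPM were summed per gene. Unmatched identifiers held 9.66% to 9.89% of the counts and were left out. Rounded counts of all genes were tested with edgeR 4.0.16 in R 4.3.3 (glmQLFit, glmQLFTest, TMM, filterByExpr, group as the only term), the 2 Doxy(+) against the 2 Doxy(-) libraries, and p-values were adjusted by Benjamini-Hochberg. Log2 fold changes are Doxy(+) over Doxy(-) with SE, CPM are scaled by TMM, and the SE is that implied by the F statistic. Depth was 14042545 to 16618401 counts, and 3 counts, the limit that a count of 0 allows, equal 0.204 to 0.233 CPM.

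Alternatives were other scaling (RLE), filters and rounding, DESeq2 1.42.0, limma 3.58.1 on log2(TPM + 1) and log2(TPM + 0.1), length-scaled counts, added unmatched copies, a replicate block, an adjusted p under 0.01 and each library left out. The members and the lists of other genes were chosen with earlier results of these data known. Values of every library are given for members past both limits, for the 16 others past the adjusted p with the largest change and at least 10 CPM, for the member of each class with the highest TPM, and as counts for those under the filter. Of each list of other genes the 3 with the smallest p are named, and members or genes outside this rule were named by class to account for all 56. Some members share exons with another gene: COL18A1, NID2, HSPG2, THBS1, THBS3, TNC, LTBP3 and LOX on the other strand, and LOXL2, ITGA1, ITGB3 and ITGB6 on the same strand.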

Additional observations from a re-analysis of the deposited data

How the results depend on the processing

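The counts of members past the limits depended on the unit tested. With limma on TPM, 14 members were lower and 1 was higher at an adjusted p under 0.05, with either pseudocount, and 3 were lower at both limits. Without a filter on low TPM, 5 were lower, 0 were higher and 2 were lower at both limits. Length-scaled counts gave 1 higher member. Leaving out 1 library left a single library in 1 group. The log2 fold changes of the members that were higher then ran from 0.27 to 0.30 for SPP1, from 0.21 to 0.25 for ITGA5 and from 0.12 to 0.16 for MFGE8. COL1A1, COL6A1, HSPG2, ITGA5, ITGAV, MFGE8 and THBS2 lost their calls without either Doxy(+) library, SPARC without Doxy(+) 1 and COL6A2 without Doxy(+) 2, while MFGE8 lost it also without either Doxy(-) library, COL1A1 without Doxy(-) 1 and THBS2 without Doxy(-) 2. Same-numbered libraries did not deviate together (correlation -0.015 over 13569 genes), so the numbers were not taken as pairs, and with a replicate block 27 members were lower and 2 were higher. Of the 28 members past the limit, 0 changed sign in any of 15 settings, and 5 (CCDC80, COL7A1, COL8A1, ITGB8 and TGFBI) passed in all of them. With limma without a filter set aside, 14 passed in all, these 5 included. THBS1 and FN1 lost the call in that setting only. In 81 of 420 values the call was lost. An adjusted p under 0.01, not counted among the 15 settings, was missed by COL1A1, HSPG2, ITGAV, ITGB6, MFGE8 and THBS2. Among members that had not passed, NID2 passed without a low-count filter (adjusted p = 0.0427) and with the block (0.0318), THBS3 without a filter (0.0485) and LTBP3 with the block (0.0433). The log2 fold change was -1.25 for NID2 without Doxy(-) 1, and -0.21 for THBS3 and -0.14 for ITGB5 without Doxy(-) 2. For LTBP4 it was -1.33 without Doxy(+) 2 and 0.44 without Doxy(+) 1. The cause was not tested.

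Signs turned only among members that had not passed. With limma on log2(TPM + 1), filtered or not, COL4A1 had a log2 fold change of 0.024, COL4A2 0.0023, FBN1 0.029, ITGA2 0.18 and ITGB5 0.060, and on log2(TPM + 0.1) these were 0.024, 0.0023, 0.029, 0.29 and 0.060. LTBP1 had -0.18 in limma without a filter. Length-scaled counts gave -0.028 for COL5A2, 0.27 for ITGA2, -0.049 for ITGB4 and 0.023 for ITGB5. ITGA6 had 3.9e-05 with a mean CPM of at least 1. With 1 library left out, the log2 fold change ran for COL18A1 from -0.12 to 0.017, for COL5A2 from -0.25 to 0.62, for FBLN1 from -0.0047 to 0.019, for ITGA1 from -0.0086 to 0.16, for ITGA2 from -0.085 to 0.011, for ITGA6 from -0.046 to 0.038, for ITGB4 from -0.088 to 0.11 and for LTBP4 from -1.33 to 0.44. The members under the filter each had at most 28.1 counts in a library, and the reason was not tested.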
